A study of Mus musculus with 69 samples.

Results

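Adipoq, Lep, Plin1, Plin4, Cidec, Thrsp, Car3, Cfd, Retn and Fabp4, 10 genes best known from fat cells, were followed through RNASeq libraries of whole kidneys from NZB/W F1 mice, a strain that develops lupus nephritis with age. They were picked by symbol, 10 of the 24523 symbols with counts, after Thrsp and Car3 had looked rhythmic over the day in nephritic mice alone and after Adipoq had been seen to vary between libraries, and the question was how far 1 shared fat signal goes with all of them. Their course over the day is therefore given as a description with no test. The change of the other 9 genes with Adipoq among mice of the same time point, and the levels between groups, did not enter the choice and were tested. The perfused kidneys came from 30 young mice of 12 weeks, from 27 nephritic mice of 30 to 45 weeks collected 2 to 3 weeks after proteinuria had passed 300 mg/dl, and from 8 mice in remission. The remission mice had become nephritic, were given 1 dose of cyclophosphamide at 50 mg/kg with 6 doses of CTLA4Ig and anti-CD40L within 2 weeks at 36 to 50 weeks of age, and were collected 8 weeks after this with proteinuria of at most 30 mg/dl. Young and nephritic mice, which the labels list with no treatment, were collected every 4 h in Zeitgeber time (ZT, hours after lights on), with 4 to 7 young and 3 to 7 nephritic mice per time point, while remission mice were collected at ZT0 and ZT12, 4 at each. Young and nephritic mice differ in age as well as in disease, so age and disease cannot be told apart.

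White adipocytes store triglyceride in a single large lipid droplet and release hormones, and fat of this kind lies around the kidney and in its sinus, next to the pelvis and the large vessels. Adiponectin and leptin are made chiefly by adipocytes. Adipocytes take up fatty acids and also make them from glucose, an activity that follows feeding and therefore the hour of the day.

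The first 250 bases before and 50 bases after the start site are shown for 4 members, as found in RefSeq on build GRCm38.p6, which held promoters for 8 of the 10 genes. Adipoq is shown as the gene that serves as the measure of fat below, Cidec as the gene that followed it most closely, and Lep and Thrsp as the genes that followed it least in nephritic mice. Capitals mark matches, on either strand, to CCAAT (the CCAAT box) or to TTGCNNAA (the site bound by C/EBP factors, which act in adipocyte differentiation). Sequences run 5′ to 3′ on the strand of the gene.
Adipoq, chr16:23146286-23146585, plus strand: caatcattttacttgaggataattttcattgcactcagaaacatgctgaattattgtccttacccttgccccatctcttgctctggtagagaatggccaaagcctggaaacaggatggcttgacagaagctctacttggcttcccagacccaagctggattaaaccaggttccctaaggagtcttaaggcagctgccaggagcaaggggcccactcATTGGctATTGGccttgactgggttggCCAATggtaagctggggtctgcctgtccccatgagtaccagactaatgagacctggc
Cidec, second of its 2 start sites, chr6:113434715-113435014, minus strand: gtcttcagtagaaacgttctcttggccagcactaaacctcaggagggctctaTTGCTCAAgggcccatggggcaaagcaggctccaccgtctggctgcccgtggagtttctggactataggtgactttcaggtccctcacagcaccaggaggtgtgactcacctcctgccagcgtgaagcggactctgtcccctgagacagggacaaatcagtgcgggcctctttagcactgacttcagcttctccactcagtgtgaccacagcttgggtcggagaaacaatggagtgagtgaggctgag
Lep, chr6:29059971-29060270, plus strand: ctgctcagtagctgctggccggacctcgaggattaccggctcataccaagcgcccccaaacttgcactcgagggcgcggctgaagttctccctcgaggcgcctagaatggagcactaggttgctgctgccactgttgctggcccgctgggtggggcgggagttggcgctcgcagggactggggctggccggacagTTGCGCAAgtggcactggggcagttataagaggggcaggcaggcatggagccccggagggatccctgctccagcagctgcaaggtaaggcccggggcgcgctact
Thrsp, chr7:97417501-97417800, minus strand: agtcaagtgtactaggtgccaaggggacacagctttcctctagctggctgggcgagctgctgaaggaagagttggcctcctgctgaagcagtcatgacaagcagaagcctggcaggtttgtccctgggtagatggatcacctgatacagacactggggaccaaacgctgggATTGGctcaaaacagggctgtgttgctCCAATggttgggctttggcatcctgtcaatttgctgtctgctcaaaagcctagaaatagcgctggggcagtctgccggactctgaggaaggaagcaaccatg
The 2 motifs do not overlap in these windows. TTGCNNAA was in the promoters of Lep, Plin1 and Cidec and in 10.8% of all 32851 promoters of this length, and CCAAT was in those of Adipoq, Plin4 and Thrsp and in 37.41% of them. AGGTCA (a site of nuclear receptors), CACGTG (the E-box bound by clock factors) and TATAAA, found in 16.26%, 7.15% and 13.62% of all promoters on either strand, were in none of the member promoters searched.

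The libraries held 25257530 to 35744843 counts in young mice, 26596500 to 48075977 in nephritic mice and 13311278 to 21849912 in remission mice, and the lowest count of any member was 4, for Lep in the young mouse ZT8LL. Markers of kidney, such as Umod and Lrp2, summed to medians of 14140, 13070 and 15090 CPM in young, nephritic and remission mice. CPM are counts scaled to the total count of the library. By contrast, 7 white adipocyte markers that are all members summed to 262, 236 and 383 CPM. Some libraries also held transcripts of neighbouring organs. The summed level of 9 liver markers was 11310 to 12870 CPM in the young mice ZT8LU, ZT16RU and ZT16LL, against medians of 313 and 316 CPM in young and nephritic mice. The summed level of 12 adrenal markers was over 50 CPM in 8 young mice and in the nephritic mouse RX10LU, against medians of 8.13 and 7.95 CPM. Young and nephritic libraries fall into 2 sets in the study's sample table, of which set 1, with 6 young and 5 nephritic mice, holds ZT0 and ZT12 alone. All 8 of the young mice with adrenal transcripts belonged to set 2, and 6 of them were collected at ZT12 or ZT16. Results were therefore computed also without the 3 liver-rich young libraries, and without all 10 young and 1 nephritic libraries that passed 50 CPM of adrenal or 2000 CPM of liver markers. In addition, the remission library s9, labelled ZT12, was nearest in its counts to a ZT0 library. It held 27.65 CPM of the clock gene Arntl, against 3.23 to 4.95 CPM in the other ZT12 remission mice and 22.5 to 29.9 CPM in those of ZT0. It was kept under its label, which may be wrong.

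Per kilobase of exon, Fabp4 was the most abundant member and Lep the least. Fabp4, a fatty acid carrier that endothelium and macrophages also make, had a median of 158 CPM per kb in young mice. It was followed by Car3, a cytosolic carbonic anhydrase abundant in fat, muscle and liver, at 68.9, by Cfd (adipsin, the protease that starts the alternative complement pathway) at 54.5, and by Thrsp, a nuclear protein that rises with lipid synthesis in fat and liver, at 35.9 CPM per kb. Medians for the hormone adiponectin (Adipoq) and the droplet protein Cidec were 12.3 and 10.3, those for the droplet coat protein Plin1, the hormone resistin (Retn) and the droplet coat protein Plin4 were 4.05, 3.89 and 2.27, and that for leptin (Lep) was 0.945 CPM per kb. Within young mice the highest level of a member was 9.53-fold (Plin4) to 91.5-fold (Lep) its lowest, and the ranges of neighbours in this order overlapped throughout. Plin4 overlaps the gene Hdgfl2 on the opposite strand, and since the strand setting of the counting is not given in the sources used here, its reads may include those of its neighbour.

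Adipoq, the measure of fat used below, varied widely within each group. In young mice, Adipoq ranged from 1.77 CPM in ZT8LL through a median of 15.9 to 57.5 CPM in ZT12RL. In nephritic mice it ranged from 1.30 CPM in RX8RU through 14.5 to 51.1 CPM in RX10LU, and in remission mice from 3.58 CPM in s1 through 20.1 to 37.9 CPM in s10. The 3 groups overlapped over nearly their whole ranges. ZT8LL and s1 were the lowest of their groups for all 10 members, whereas RX8RU was lowest of the nephritic mice for Adipoq, Lep, Plin1 and Car3. In these whole-kidney libraries, fewer fat cells and less RNA per fat cell cannot be told apart.

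All of the other 9 members rose with Adipoq between young mice of the same time point. The slope of a gene on the log2 CPM of Adipoq, in which a value of 1 stands for an equal relative change, was fitted for every gene with time point and set as covariates by edgeR's quasi-likelihood test. In young mice, 9 of 9 members had a positive slope at an adjusted p of at most 0.05, where 0.999% of 16520 genes had a positive and 0.418% a negative one. The steepest were Retn (1.15, SE 0.07, adjusted p = 9.87e-11), Thrsp (1.10, SE 0.16, adjusted p = 0.000207) and Car3 (1.06, SE 0.15, adjusted p = 9.36e-05), and Plin4 was the shallowest (0.65, SE 0.07, adjusted p = 8.84e-07). Cidec, a protein that fuses lipid droplets, ranked first of all genes (1.02, SE 0.05, adjusted p = 1.09e-13). Its level was 2.71 to 96.0 CPM over the 30 mice, and its ratio to Adipoq stayed between 0.98 and 1.98. Lep, the satiety hormone, had the widest error (0.87, SE 0.18, adjusted p = 0.0102), and its call was lost without the young mouse ZT00 (adjusted p = 0.113) and without the 2 mice farthest from the median of Adipoq (adjusted p = 0.106). All 9 calls were present without the 3 liver-rich libraries and without the 10 with liver or adrenal transcripts.

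The pair of young libraries with the most Thrsp and Car3 for their Adipoq were among the liver-rich ones. ZT8LU held 159 CPM of Thrsp and 230 CPM of Car3 with 7.74 CPM of Adipoq, which were 20.5 and 29.8 times its Adipoq. ZT16LL came next with ratios of 4.85 and 12.3, whereas the young medians were 2.92 and 6.05. Both genes are also made in liver. Over young mice, the Pearson correlation with Adipoq after removal of time point and set was 0.83 for both genes, and it was 0.92 for Thrsp and 0.94 for Car3 without the 3 liver-rich mice.

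**Figure D1:**
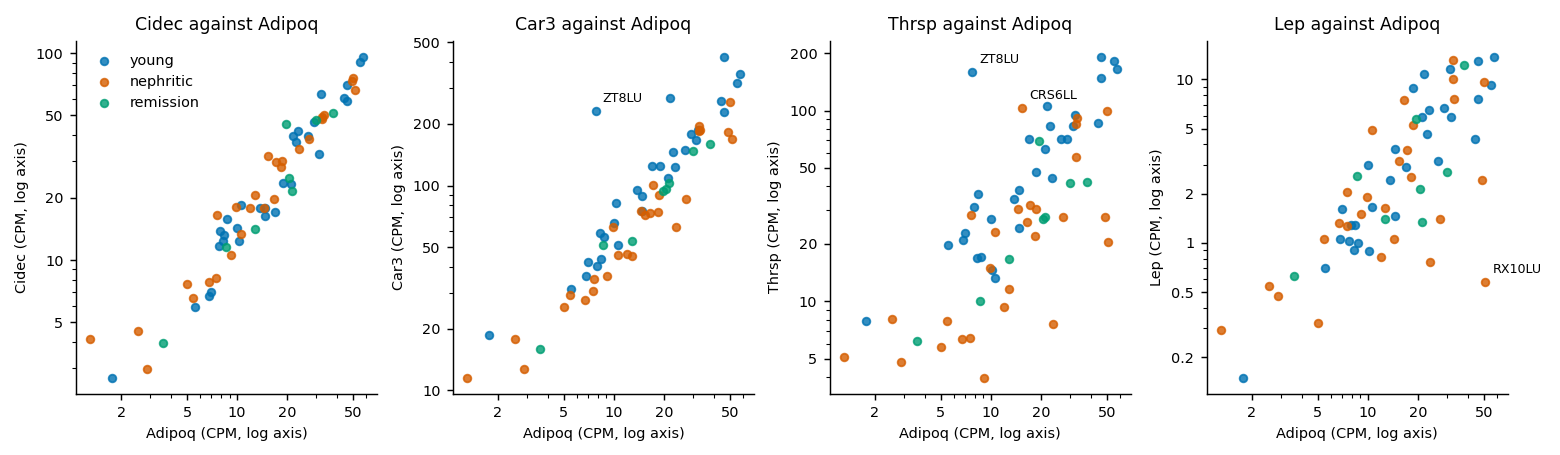
Levels of Cidec, Car3, Thrsp and Lep against Adipoq in CPM, on log axes, with 1 point per mouse for 30 young, 27 nephritic and 8 remission mice. Cidec lies along 1 line in every group, ZT8LU stands above the rest for Car3 and Thrsp, and RX10LU holds 0.575 CPM of Lep at the highest nephritic Adipoq (51.1 CPM).

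In nephritic mice, 6 of the other 9 members rose with Adipoq, where 0.255% of 16871 genes had a positive slope and 0% a negative one. Cidec was again first of all genes (0.84, SE 0.06, adjusted p = 3.49e-08), before Car3 (0.83, SE 0.07, adjusted p = 2.43e-07), Plin1 (0.97, SE 0.10, adjusted p = 1.09e-05), Retn (0.85, SE 0.09, adjusted p = 1.97e-05) and Cfd (0.92, SE 0.11, adjusted p = 0.000115). Fabp4 had a slope of 0.36 (SE 0.07, adjusted p = 0.0348), and this call was lost in 17 of the 27 fits that left out 1 mouse. Plin4 (0.34, SE 0.08, adjusted p = 0.0541) did not pass. Lep (0.64, SE 0.31) and Thrsp (0.51, SE 0.25) had adjusted p-values of 1. Before adjustment, 8 members were under 0.05, and DESeq2 called 7.

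Lep and Thrsp were thus the members least tied to Adipoq in nephritic mice. Their correlations with it were 0.35 (Spearman 0.33) and 0.44 (Spearman 0.35) after removal of time point and set, against 0.70 to 0.95 for the other 7, all over the same 27 libraries. Without RX8RU and RX7LU, the 2 mice farthest from the median of Adipoq, they were -0.01 for Lep and 0.29 for Thrsp, and 0.78 to 0.94 for the other 7. Single mice lay far to either side. RX10LU, with the most Adipoq of the group and 4135 CPM of liver and 2134 CPM of adrenal markers, held 0.575 CPM of Lep, 0.0113 times its Adipoq, against a nephritic median ratio of 0.194. The nephritic mouse CRS6LL held 103 CPM of Thrsp, 6.70 times its Adipoq, and CRS60 held 7.62 CPM, 0.323 times its Adipoq, with a median ratio of 1.57.

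**Figure D2:**
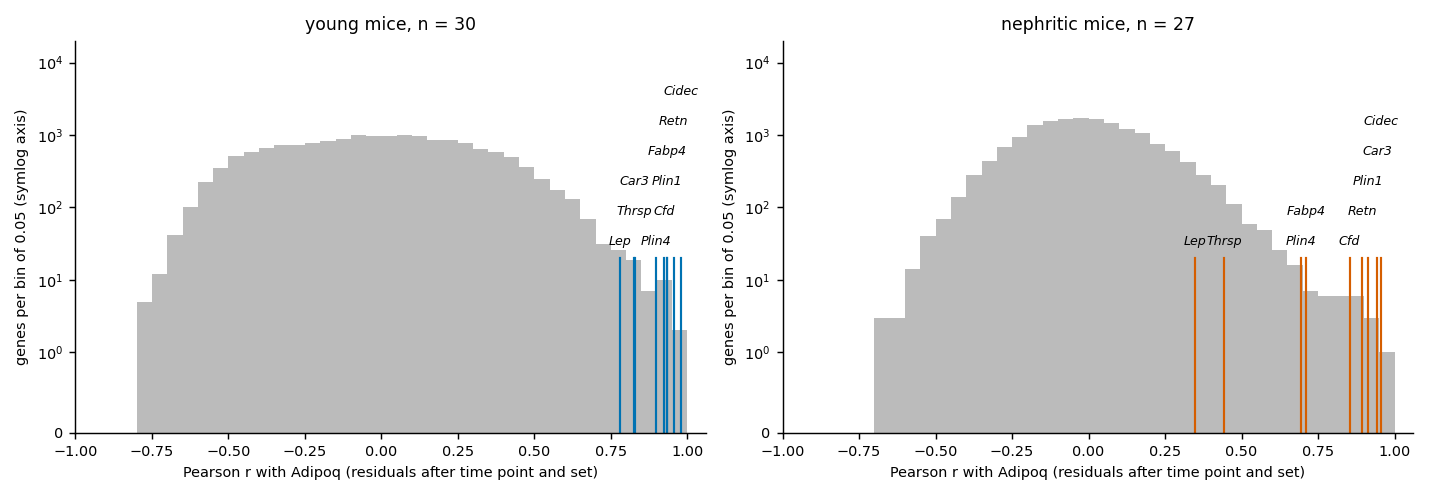
Histogram of the Pearson correlation with Adipoq of 16520 genes in young and 16871 genes in nephritic mice (log2 CPM after removal of time point and set, genes per bin of 0.05 on a symlog axis), with vertical lines at the other 9 members. All 9 lie at 0.78 or above in young mice, whereas in nephritic mice Lep (0.35) and Thrsp (0.44) lie below the other 7, with 95.3% and 98.1% of genes below them.

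The difference of slopes between nephritic and young mice was tested for itself, in 1 fit of both groups, and called 0 of 9 members and 0% of 17520 genes (edgeR, with 5 members and 2693 genes at an unadjusted p under 0.05). The slope was shallower in nephritic mice by 0.72 for Thrsp (SE 0.30, p = 0.0181, adjusted p = 0.255) and by 0.41 for Fabp4 (SE 0.09, p = 5.76e-05, adjusted p = 0.175). A different tie of Thrsp or Fabp4 to Adipoq in the 2 groups is therefore not shown. In remission mice, 0 of 9 members and 0% of 14450 genes passed (edgeR), while 8 members and 233 genes had an unadjusted p under 0.05 and DESeq2 called 5 members among 11 genes. The slopes themselves were 0.32 to 1.16, with Car3 first of all genes (0.98, SE 0.09, adjusted p = 0.0667) and Retn next (1.16, SE 0.14, adjusted p = 0.213). This fit in remission mice took s9 at its label of ZT12.

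Since the 10 genes vary together, their variation was also summarised by principal components of the residuals, over the same mice. The first component held 85.1% of it in young, 71.1% in nephritic and 81.4% in remission mice, and the second 5.79%, 16.6% and 10.98%. Pairwise correlations had medians of 0.83, 0.70 and 0.80. The lowest in nephritic mice was -0.11, between Lep and Plin4.

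The genes outside the list that were most like Adipoq were other genes of fat. By the mean of the correlations in young and nephritic mice, they included Adrb3, the adrenergic receptor that drives lipolysis (0.93), the transporter Slc36a2 (0.90), adipogenin (Adig, 0.89), the transporter Slc7a10 (0.88), the peroxisomal transporter Abcd2 (0.87), the activin receptor Acvr1c (0.86), Apol6 (0.86), the transcription factor Ebf2 (0.83) and the serpin Serpina3c (0.83). Each of these had a positive slope that passed in both groups. Cidec, Retn, Plin1, Cfd and Car3 ranked 1, 3, 4, 7 and 8 among 16385 genes on the same measure, Fabp4 and Plin4 16 and 19, Thrsp 49 and Lep 97. In all, 24 genes passed with a positive slope in both groups, 14.5% of the 165 in young and 55.8% of the 43 in nephritic mice, and 6 of them were members.

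Lists of related genes moved with Adipoq to differing extents. Of 20 adipocyte companions, which fat shares with other tissues, 7 rose with it in young mice (Acvr1c, Adrb3, Agpat2, Cd36, Lipe, Pnpla2 and Pparg) and 3 in nephritic mice (Acvr1c, Adrb3 and Pparg, the last lost without RX10LU at an adjusted p of 0.103). The median slope of the companions was 0.10 in young and 0.07 in nephritic mice, against -0.0022 and -0.00097 over all genes. Of 12 lipogenic genes, Acaca, Fasn and Pnpla3 rose in young mice and 0 in nephritic mice (0 before adjustment, 0 by DESeq2), with median slopes of 0.11 and 0.01. Of 11 brown adipocyte genes tested, Cidea, Otop1 and the uncoupling protein Ucp1 rose in young mice and 0 in nephritic mice (3 before adjustment, 1 by DESeq2). With Ucp1 in place of Adipoq as the covariate, 3 of 10 members passed in young and 2 in nephritic mice. The ratio of Ucp1 to Adipoq had a median of 1.13 in young mice (0.33 to 3.68). In nephritic mice its median was 1.74 (0.099 to 7.34). The fat signal is therefore not that of white fat alone, and the parts of white and brown fat in it were not tested.

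Among markers of other cells and organs, those of the adrenal gland alone passed this test with edgeR. None of the 10 endothelial, 9 macrophage, 8 kidney or 6 tested skeletal muscle markers passed in either group, nor with DESeq2, with 1, 2, 5 and 0 of them at an unadjusted p under 0.05 in young and 0, 1, 0 and 0 in nephritic mice. Of 9 liver markers 0 passed in either group, but in young mice 8 had an unadjusted p under 0.05 and DESeq2 called 6 as rising with Adipoq. Of 12 adrenal markers 0 passed in young mice (0 before adjustment, 0 by DESeq2) and 7 in nephritic mice (4 by DESeq2). In nephritic mice RX10LU held over 2000 CPM of them, and without it 0 of the 7 adrenal markers still tested passed. The part of these neighbouring tissues in the members' levels was not tested.

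Over all mice, nephritic kidneys held less Thrsp and Car3 than young ones, and the other 8 members did not pass. The difference in Thrsp was not the same in both sets. Thrsp had 7.89, 45.8 and 191 CPM as lowest, median and highest value in young mice and 3.99, 22.03 and 103 CPM in nephritic mice. Car3 had 18.6, 116 and 426 CPM in young and 11.5, 62.9 and 255 CPM in nephritic mice. For both genes the groups overlapped over most of their ranges. With time point and set as covariates, Thrsp was lower by 1.41 on the log2 scale (-1.41, SE 0.34, adjusted p = 0.000316) and Car3 by 0.95 (-0.95, SE 0.24, adjusted p = 0.000604). These were 2 of 10 members, where 33.9% of 17521 genes were called lower and 28.1% higher, so the share called lower was below that of all genes. The median over the members was -0.37 and over all genes -0.03. Of the 7 white adipocyte markers 0 passed (0 at an unadjusted p under 0.05), with Adipoq at -0.30 (SE 0.24, adjusted p = 0.27) and Lep at -0.56 (SE 0.29, adjusted p = 0.0872).

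In set 1, neither Thrsp nor Car3 was called lower. Among its 3 young and 3 nephritic mice of ZT0, Thrsp was 14.6, 24.2 and 27.2 CPM in young and 7.62, 30.4 and 103 CPM in nephritic mice. Car3 was 65.7, 82.5 and 88.7 CPM in young and 62.6, 71.9 and 89.5 CPM in nephritic mice of ZT0. The groups thus overlapped for both genes. Fitted over the 6 young and 5 nephritic mice of set 1, the difference was 0.48 for Thrsp (SE 0.55, adjusted p = 0.474) and -0.20 for Car3 (SE 0.14, adjusted p = 0.235). Of the 10 members, 6 were instead called higher in nephritic mice of this set, where 31.1% of 15654 genes were higher and 28% lower. They were Adipoq (0.54, adjusted p = 0.00938), Plin4 (0.68, adjusted p = 0.00107), Cidec (0.74, adjusted p = 0.00218), Cfd (1.22, adjusted p = 0.000239), Retn (1.13, adjusted p = 0.00128) and Fabp4 (0.55, adjusted p = 0.0113). Lep (0.60, adjusted p = 0.275) and Plin1 (0.28, adjusted p = 0.38) did not pass.

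In set 2, with 24 young and 22 nephritic mice, 5 members were called lower and 0 higher (edgeR), with 6 members at an unadjusted p under 0.05, where 27.9% of 17339 genes were lower and 27.9% higher. They were Thrsp (-1.81), Car3 (-1.07), Lep (-0.80), Retn (-0.73) and Fabp4 (-0.40). Restricted to ZT0 and ZT12, with 8 mice a group, set 2 gave -2.25 for Thrsp, -1.45 for Car3 and -1.62 for Retn, the 3 members that passed, where 17.1% of 16100 genes were lower and 21.6% higher. The difference between sets was tested by the group by set term among mice of ZT0 and ZT12, a test added after the data were seen. It was negative, that is, lower in set 2, for all 10 members and passed for 6 of them, where 16.7% of 16684 genes were lower and 18.4% higher. Thrsp (-3.15, SE 0.79, adjusted p = 0.0032), Retn (-2.90, SE 0.72, adjusted p = 0.00293), Fabp4 (-1.65, SE 0.48, adjusted p = 0.00913), Cidec (-1.92, SE 0.67, adjusted p = 0.0274), Lep (-2.19, SE 0.81, adjusted p = 0.0377) and Adipoq (-1.84, SE 0.69, adjusted p = 0.0396) passed. Car3 did not pass (-1.42, SE 0.62, adjusted p = 0.0777). All young libraries with adrenal or high liver transcripts were in set 2, and their part in the difference between sets was not tested.

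The size of the differences over all mice also moved with those libraries. Without the 3 liver-rich young mice they were -1.12 for Thrsp (adjusted p = 0.00313) and -0.70 for Car3 (adjusted p = 0.00939), and without all libraries with liver or adrenal transcripts -0.73 (adjusted p = 0.0338) and -0.53 (adjusted p = 0.0352). Among the lists of related genes, whose counts are to be read against the 33.9% of all genes called lower and 28.1% called higher, nephritic mice had lower levels of 10 of 12 lipogenic genes, Fasn, Acaca and Srebf1 among them, of 15 of 20 adipocyte companions (with Pparg, the master regulator of fat cell differentiation, higher) and of 6 of 10 endothelial markers, and higher levels of all 9 macrophage markers. They also had lower levels of 7 of 12 adrenal and 5 of 9 liver markers. The remaining lists moved in both directions, with 3 brown adipocyte genes higher and 2 lower of 11, 2 muscle genes higher and 2 lower of 8, and 2 kidney markers higher and 3 lower of 8.

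With the log2 CPM of Adipoq as a further covariate, which compares mice at equal Adipoq, 4 of 9 members differed between nephritic and young mice, where 28.3% of 17520 genes were higher and 33.8% lower. Members were thus called no more often than all genes. Thrsp (-0.93, SE 0.25, adjusted p = 0.00139) and Car3 (-0.62, SE 0.12, adjusted p = 2.22e-05) were lower. Plin4, which coats nascent droplets, was higher by 0.36 (SE 0.09, adjusted p = 0.000278), as was the complement protease Cfd, by 0.36 (SE 0.11, adjusted p = 0.00475). The other 5 members stood between -0.21 (Lep) and 0.07 (Cidec). Of the brown adipocyte genes that rose with Adipoq in young mice, Ucp1 was higher in nephritic mice (0.80, SE 0.26, adjusted p = 0.00607). Cidea (-0.16) and Otop1 (0.04) did not pass. This fit was not repeated by set or without the liver-rich young libraries. In set 1, the ratio of Thrsp to Adipoq was 1.26 to 2.72 in young and 0.32 to 6.70 in nephritic mice, which overlap. That of Car3 was 4.87 to 8.08 in young and 2.66 to 4.79 in nephritic mice of set 1. The share of all genes whose ratio to Adipoq separates these mice in this way was not computed.

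**Figure D3:**
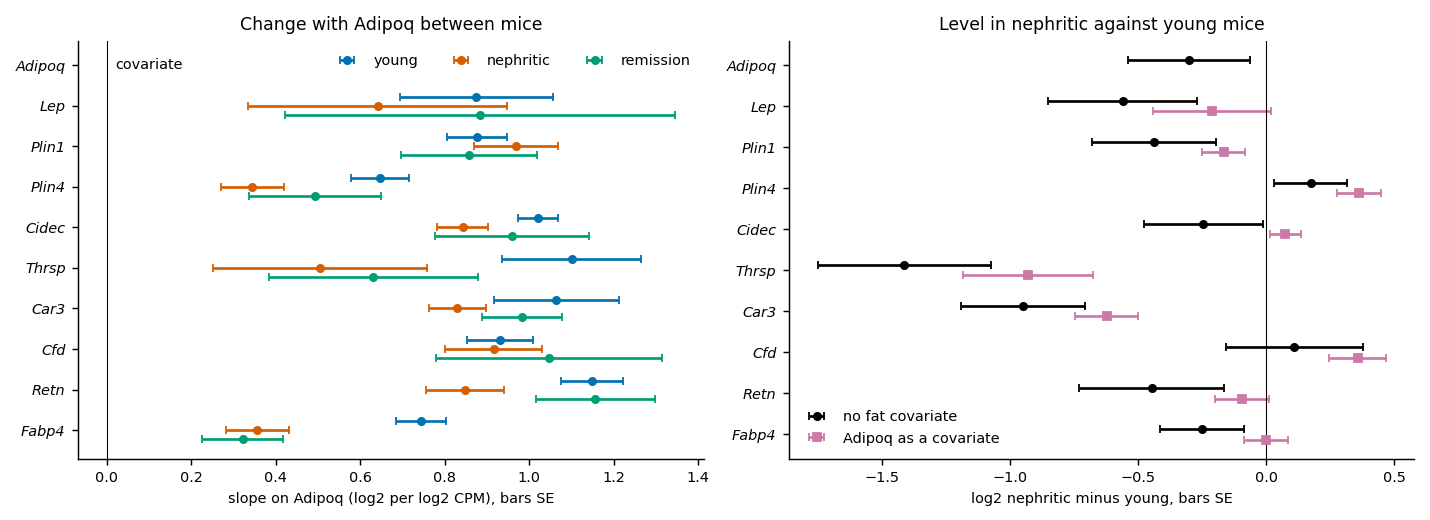
Left, slopes of the other 9 members on Adipoq (log2 per log2 CPM) in young, nephritic and remission mice. Right, log2 difference of nephritic minus young mice for the members, with and without Adipoq as a covariate. Points are estimates and bars SE. All slopes are above 0, and Thrsp (-1.41) and Car3 (-0.95) have the lowest differences, which with the covariate are -0.93 and -0.62.

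Lcn2, which injured tubules make, was used to ask whether members differ among nephritic mice at equal Adipoq, a choice made after the values were seen. Lcn2 ranged from 4.69 through a median of 77.5 to 782 CPM in these mice, and in the same fit as Adipoq 23.8% of 16870 genes had a negative and 24.3% a positive slope on it. Lep (-0.35, SE 0.09, adjusted p = 0.00268), Thrsp (-0.34, SE 0.07, adjusted p = 0.000618) and Car3 (-0.07, SE 0.02, adjusted p = 0.015) fell with Lcn2, whereas Cfd rose (0.14, SE 0.04, adjusted p = 0.00671). Plin1, Plin4, Cidec, Retn and Fabp4 did not pass (adjusted p of 0.105 to 0.699). Members were thus called no more often than all genes, and a slope on Lcn2 is not particular to them.

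Thrsp was the member that passed a test between remission mice and another group. Against nephritic mice of ZT0 and ZT12, 0 of 10 members passed (edgeR), where 16.8% of 16344 genes were higher and 19% lower, with 0 members at an unadjusted p under 0.05 and 0 by DESeq2. The differences were -0.13 (Plin4) to 0.54 (Retn), with SE of 0.25 to 0.62. Against young mice, Thrsp alone passed at -1.18 (SE 0.46, adjusted p = 0.0348), where 26.2% of 15982 genes were higher and 26.8% lower. Its lowest, median and highest values were 6.19, 27.5 and 69.3 CPM in remission mice. The median and the highest lay inside the range of all young mice (7.89 to 191 CPM), and the lowest lay below it. This call was lost in 9 of the 22 fits that left out 1 mouse, namely ZT0LU, ZT12RL, ZT12LU, ZT120, s1, s12, s3, s4 or s9. The last of these is the remission mouse whose counts were nearest to a ZT0 library (-1.11, adjusted p = 0.0634). The fit pooled the young mice of both sets. At ZT12, Thrsp was 13.3 to 17.1 CPM in young mice of set 1, 70.5 to 181 CPM in those of set 2 and 27.7 to 69.3 CPM in remission mice. At ZT0 these ranges were 14.6 to 27.2, 22.9 to 83.2 and 6.19 to 27.2 CPM. The sequencing run of the remission mice held no other original library. In both comparisons, run and group therefore cannot be told apart.

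Over the day, all members had their highest fitted levels in the middle of the dark phase, between 16.3 and 18.8 h. In nephritic mice, Thrsp was 4.83, 5.75, 6.38 and 6.44 CPM at ZT4, 27.5, 27.6 and 99.8 CPM at ZT16 and 57.3, 84.7 and 91.7 CPM at ZT20. Adipoq in the same mice was 2.87, 4.98, 6.73 and 7.50 CPM at ZT4, 27.3, 48.9 and 49.9 CPM at ZT16 and 32.4, 32.5 and 33.2 CPM at ZT20. For both genes the ZT4 mice did not overlap those of ZT16 or ZT20. Among the ZT4 libraries, RX12LU and RX11RL were closer in their counts than any other pair of original libraries. Car3 in nephritic mice was 12.7, 25.6, 27.7 and 30.4 CPM at ZT4 and 184, 187 and 196 CPM at ZT20, again with no overlap. The share of all genes with no overlap between these time points was not computed. In young mice, Thrsp was 19.8, 20.9, 34.6 and 71.3 CPM at ZT4 and 47.4, 70.8, 83.1 and 86.2 CPM at ZT20. These overlap, as do the young ZT8 mice, of which the liver-rich ZT8LU held 159 CPM and the other 3 between 7.89 and 36.4 CPM.

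Young mice of ZT12 split by set. Adipoq was 8.23, 8.67 and 10.5 CPM in the 3 mice of set 1 and 28.9, 46.2, 54.99 and 57.5 CPM in the 4 of set 2. Thrsp was 13.3, 16.9 and 17.1 CPM in set 1 and 70.5, 147, 166 and 181 CPM in set 2, and Car3 51.3, 55.9 and 58.4 CPM against 179, 228, 319 and 349 CPM. The sets did not overlap for any of the 3 genes at that time. These genes vary together, and the share of all genes that separate the sets in this way was not computed. In nephritic mice of ZT12, the 2 mice of set 1 (12.8 and 18.3 CPM of Adipoq) lay inside or just above the 4 of set 2 (1.30 to 17.3 CPM).

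**Figure D4:**
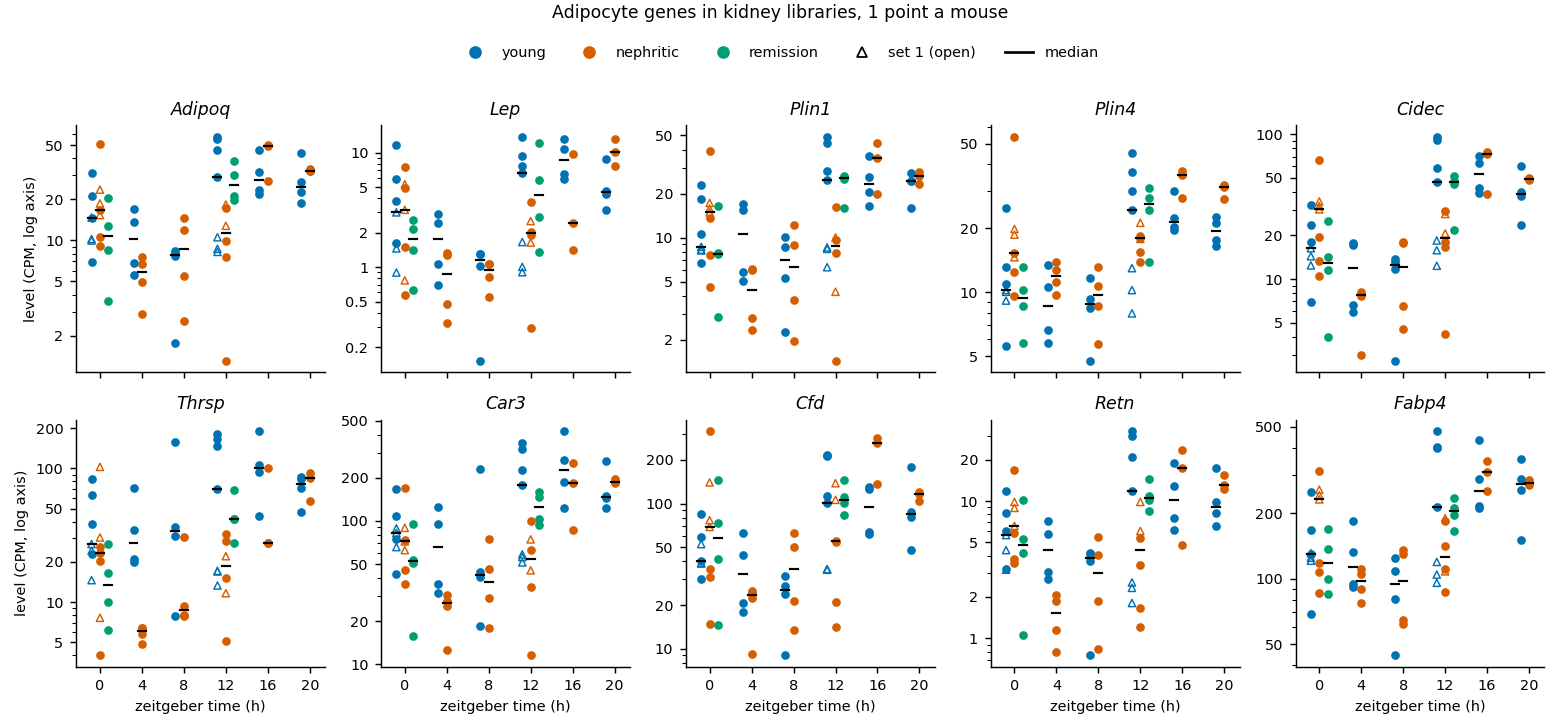
Levels of the 10 genes in CPM (log axis) by Zeitgeber time in h, 1 point per mouse in young, nephritic and remission mice, with open triangles for set 1 and bars at the median. In young and nephritic mice, the median of each gene is lower at ZT4 and ZT8 than at ZT16 and ZT20, though single mice overlap. ZT12 young mice of set 1 lie below those of set 2.

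The amplitude of a 24 h cosine, on the log2 scale with set as a covariate, was 1.12 ± 0.25 (SE, n = 30) in young and 1.49 ± 0.30 (SE, n = 27) in nephritic mice for Adipoq itself. For Thrsp it was 0.81 ± 0.26 in young and 1.57 ± 0.35 in nephritic mice, and for Car3 1.05 ± 0.25 and 1.46 ± 0.26. Lep and Cidec had 1.45 ± 0.30 and 1.36 ± 0.23 in young mice and 1.62 ± 0.36 and 1.59 ± 0.26 in nephritic mice. These amplitudes were smaller for every member once Adipoq was a covariate. Thrsp then had 0.26 ± 0.19 in young and 0.77 ± 0.44 in nephritic mice, and Car3 0.15 ± 0.16 and 0.26 ± 0.13. Among nephritic mice Lep retained 1.06 ± 0.51, whereas Plin1 had 0.10 ± 0.17. Lep and Thrsp, the members least tied to Adipoq in nephritic mice, thus had the largest amplitudes left in that group, with wide errors. This order rested in part on RX10LU. Without it, Lep had 0.80 ± 0.42, Thrsp 0.66 ± 0.45, Plin4 0.62 ± 0.12 and Cfd 0.51 ± 0.13 with Adipoq as a covariate. Over all mice of a group, smaller amplitudes with narrower errors were left for Cidec (0.37 ± 0.06 in young and 0.41 ± 0.10 in nephritic mice). The same held for Plin4 (0.24 ± 0.06 and 0.50 ± 0.15). Retn kept 0.32 ± 0.10 in young mice, with its fitted peak at 5.27 h rather than 17.25 h, and 0.35 ± 0.18 in nephritic mice. Cfd and Fabp4 kept 0.39 ± 0.13 and 0.37 ± 0.15 in nephritic mice, against 0.06 ± 0.07 and 0.09 ± 0.06 in young mice. In young mice, the amplitude of Cidec was the largest left. With Plin1 as the covariate, Thrsp had 0.15 ± 0.17 and 0.52 ± 0.36, and Car3 0.25 ± 0.23 and 0.30 ± 0.15. Without the libraries with liver or adrenal transcripts, Thrsp had 0.94 ± 0.24 in the remaining 20 young mice and Car3 1.19 ± 0.24, and with Adipoq as a covariate 0.06 ± 0.11 and 0.17 ± 0.13.

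**Figure D5:**
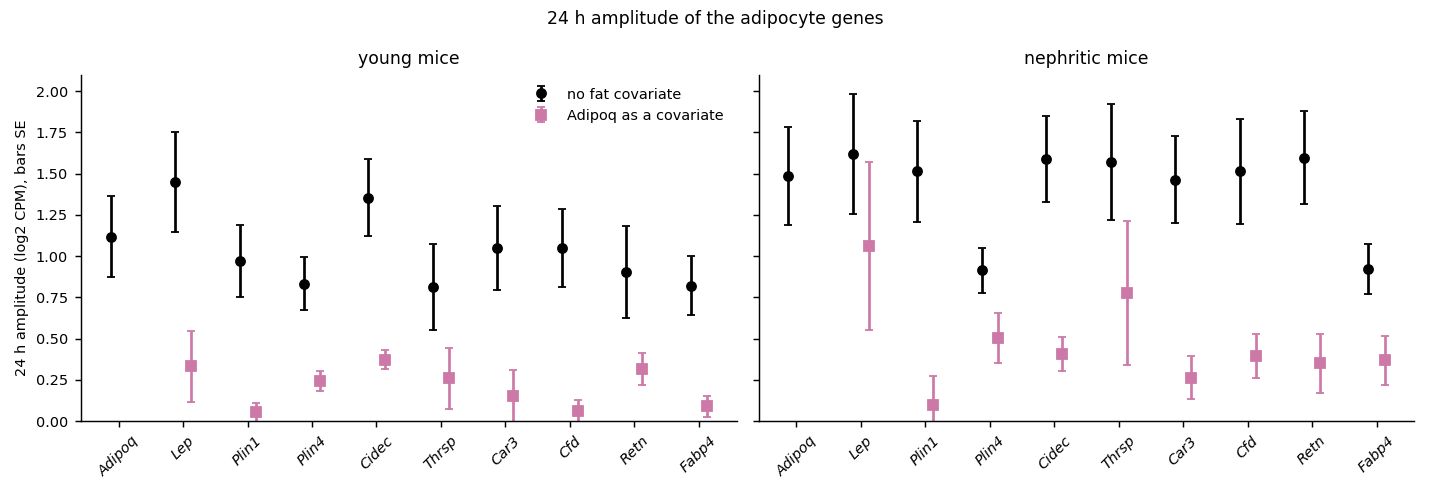
Amplitude of a 24 h cosine on the log2 CPM scale, with SE bars, for the 10 genes in 30 young and 27 nephritic mice, with no fat covariate (circles) and with Adipoq as a covariate (squares, not for Adipoq itself). Amplitudes with the covariate are below those without it for every gene, and in nephritic mice those of Lep (1.06) and Thrsp (0.77) are the highest that are left.

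For 4 mice a repeat library was also deposited. In ZT0LU, ZT12RU and RX12RU, the median absolute difference between repeat and original over the 10 members was 0.08, 0.15 and 0.17 on the log2 scale, with the widest at 0.99 for Lep in RX12RU. The repeat labelled RX11RU differed by a median of 2.08, was nearest in all its counts to the ZT4 library RX11LU, and is given here as a library that goes against its label. Repeat libraries entered no other result.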

How the data were processed

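Whole-kidney RNASeq of 65 mice and 4 repeat libraries was used. The authors aligned the reads, and the files they deposited give raw counts for each gene symbol. The processing notes of the submitters name HISAT and build mm10, whereas the study's methods speak of uniquely aligned reads and the Burrows-Wheeler algorithm, and the strand setting is not given in the sources used here. Of 24538 symbols, 15 were empty in every library. Groups and time points came from the labels, and sets from the library titles as in the study's sample table. Nothing states that libraries share an animal. The nephritic ZT4 libraries RX12LU and RX11RL were the closest pair of original libraries, with a chi-square per gene of 3.58 between their counts. Repeats of ZT0LU, ZT12RU and RX12RU gave 21.85, 12.84 and 20.06 to their own originals. Whether RX12LU and RX11RL share an animal was not tested, and each was counted as a mouse.

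Genes with at least 100 counts over the libraries of a fit were kept, scaled by TMM factors and tested with edgeR 4.0.16 (quasi-likelihood F test, R 4.3.3) with Benjamini-Hochberg adjustment over all genes, at an adjusted p of at most 0.05. Covariates were time point and set for young and nephritic mice, and time point alone in comparisons with remission mice. Levels and ratios of levels are in CPM, that is, counts scaled to the total count of the library, with no TMM factor. The log2 scale of the fits, correlations and amplitudes used TMM factors and a prior count of 2. Amplitudes came from a 24 h cosine and sine. Alternatives were DESeq2 1.42.0, RLE size factors, no filter on low counts, each set, other covariates and leaving out mice. A gene with few counts, such as Lep, carries counting error in addition to the spread between mice.

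Named genes were the 10 members, the 10 genes most like Adipoq by the mean correlation in young and nephritic mice, and list members that passed on Adipoq in both. One of the genes most like Adipoq is not reported here. The members, the gene lists and the tests were chosen with earlier results of these data known. The liver list, the exclusion of liver-rich and adrenal-rich libraries, the test between sets and that on Lcn2 were added after the data were seen. Libraries of other strains and the microarrays of the study were not used here.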

Additional observations from a re-analysis of the deposited data

Results flagged for a closer look

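Within a group and time point of 4 to 7 mice, 13 of 120 sets of values had 1 library far from the others, 10.8%, where chance gives about 1 in 20. What follows gives the gap of that library to the next one as a share of the whole range of the set. They were mostly single mice with little fat signal. The members vary together, and some libraries were counted for more than 1 gene. The 120 sets of values are therefore not independent, and an excess over chance is not shown.

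The young mouse ZT8LL lay below the other ZT8 mice for Adipoq (0.95; 1.77 CPM against 7.74 CPM for the next), Lep (0.891), Cidec (0.9) and Retn (0.922). The nephritic mouse RX8RU lay below the other ZT12 mice for Adipoq (0.665; 1.30 against 7.54 CPM), Lep (0.68) and Cidec (0.702). The nephritic mouse RX11LU lay below the other ZT4 mice for Cidec (0.941) and Cfd (0.898).

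Other mice stood apart at the upper end or in remission. The nephritic mouse RX10LU, which held liver and adrenal transcripts, lay above the other ZT0 mice for Plin4 (0.579; 53.9 against 19.8 CPM). The nephritic mouse RX100 lay above the other ZT8 mice for Thrsp (0.873; 30.4 against 9.38 CPM). The remission mouse s9, whose counts were nearest to a ZT0 library, lay below the other ZT12 mice for Plin1 (0.917; 15.9 against 25.2 CPM) and Cidec (0.855; 21.7 against 45.4 CPM). The causes were not tested.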

How the results depend on the processing

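For values and counts that answer a comparison, 367 alternatives kept the direction and stayed near the value reported, and 43 moved it. For single genes, 2689 kept their direction and side of the threshold, 59 lost and 21 gained a call, 28 moved and 14 reversed. Set 1 alone gave 6 members past the threshold between nephritic and young mice and set 2 alone 5, against 2 over both, and Adipoq as a covariate gave 4. In set 1 alone the sign reversed for Adipoq (0.54), Lep (0.60), Plin1 (0.28), Cidec (0.74), Thrsp (0.48), Retn (1.13) and Fabp4 (0.55), and Cfd reversed in set 2 alone (-0.11). Cidec reversed with Adipoq as a covariate (0.075). With single mice left out, Cfd lay between -0.096 (without RX10LU) and 0.21. In remission against nephritic mice, Lep lay between -0.10 (without s10) and 0.72 and Plin4 between -0.29 and 0.060 (without RX10LU, with 0.033 without s1), and in remission against young mice Cfd lay between -0.084 (without s8) and 0.36. None of these genes but Thrsp had passed over all mice. The count of members against young mice in remission was 0 without s9, and 0 to 1 when single mice were left out.

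The members' slopes on Adipoq moved less than the count of all genes. With Ucp1 as the covariate 3 members passed in young and 2 in nephritic mice, and leaving out single mice gave 8 to 9 and 5 to 7 members. DESeq2 called 5 members and 11 genes in remission mice, against 0. In young mice, 234 genes passed, against 827 by DESeq2, 73 in set 2 alone, 4370 with no set covariate, 2225 with no time point, 123 with Plin1 and 59 with Ucp1 as the covariate, 88 without the 2 mice farthest in Adipoq, 86 without libraries with liver or adrenal transcripts, and 67 (without ZT00) to 641 (without ZT40) when single mice were left out. In nephritic mice 43 passed, against 14 with Ucp1, 151 with no time point and 15 (without RX10LU) to 61 (without RX8RU) when single mice were left out. The cause was not tested. The amplitudes of Thrsp with Adipoq and with Plin1 as a covariate were 0.26 and 0.15 in young and 0.77 and 0.52 in nephritic mice, and those of Car3 0.15 and 0.25, and 0.26 and 0.30.

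No paired analysis was possible because the labels give no replicate number that groups share. With 3 or 4 mice at most time points, and 8 in remission, a gene that did not pass is not shown to be equal between groups.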
